A study of Homo sapiens with 5 samples.

Results

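The pCDH control and the sh control are the 2 control libraries of a study of RBMS1, an RNA-binding protein, in A549, an established cell line from a human lung adenocarcinoma. They were compared over every gene with a mean CPM (counts scaled to library size) of at least 5 in the pair, which gave 10488 of the 58929 genes in the files. The study holds 5 libraries in 4 groups: the sh control (1 library), stable RBMS1 knockdown (2 libraries, sh1088 and sh1196, named for different hairpins), the pCDH control of the overexpression arm (1 library) and stable RBMS1 overexpression (1 library, R1A). All cells were grown in F12K medium with 10% fetal bovine serum, given cycloheximide (100 ug/mL, 15 min) and lysed, and the lysates were digested with RNase I for 5 min before the fraction with single ribosomes was taken from a gradient. The labels call neither control altered in RBMS1, and they do not say whether a line is 1 clone or whether the 2 arms were prepared together. The design text calls the libraries ribosome footprints, while the molecule label reads total RNA and the protocol also covers fragmented total RNA, so a count here is read as ribosome-protected RNA only on the word of the design text.

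A ribosome held on an mRNA by cycloheximide shields a short stretch from RNase, and sequencing these stretches shows which mRNAs were being read and how often. Sublines of 1 carcinoma line are known to vary in growth state and inflammatory signalling. NF-kB is the transcription factor of inflammatory cytokine genes, ATF4 and XBP1 are transcription factors of the amino acid and endoplasmic reticulum stress responses, and each binds a short DNA motif near its targets.

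Promoters of 7 genes are printed first because 3 of the stress and cytokine gene lists below are known by such motifs and their members lay far apart between the controls. The sequences are RefSeq promoters on GRCh38.p14, 5' to 3' on the gene's strand, with the motif match in capitals. The kB motif was searched as GGG, any 2 bases and TTTCC, the endoplasmic reticulum stress element (ERSE) as CCAAT, any 9 bases and CCACG, and the C/EBP-ATF response element (CARE) as TGATGNAA, on both strands of the 250 bases before each start site. The 7 genes were chosen after their values were seen. They are IL6 (chr7:22727097-22727166, plus strand), CXCL1 (chr4:73869284-73869353, plus), CALR (chr19:12938359-12938432, plus), HSP90B1 (chr12:103930186-103930369, plus), XBP1 (chr22:28800573-28800651, minus), ASNS (chr7:97872439-97872506, minus) and CHAC1 (chr15:40953232-40953299, plus).
IL6: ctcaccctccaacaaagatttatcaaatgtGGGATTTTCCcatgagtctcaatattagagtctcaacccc
CXCL1: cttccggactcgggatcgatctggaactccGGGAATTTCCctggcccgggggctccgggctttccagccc
CALR: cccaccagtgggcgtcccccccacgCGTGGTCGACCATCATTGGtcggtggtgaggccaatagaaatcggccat
HSP90B1: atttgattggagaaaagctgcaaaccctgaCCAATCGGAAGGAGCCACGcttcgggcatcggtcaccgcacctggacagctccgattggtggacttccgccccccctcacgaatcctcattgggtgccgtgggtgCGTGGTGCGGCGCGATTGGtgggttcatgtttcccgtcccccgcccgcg
XBP1: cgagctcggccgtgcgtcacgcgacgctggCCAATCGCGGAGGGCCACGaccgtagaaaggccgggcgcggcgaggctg
ASNS: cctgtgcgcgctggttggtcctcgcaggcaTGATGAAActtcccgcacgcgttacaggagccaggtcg
CHAC1: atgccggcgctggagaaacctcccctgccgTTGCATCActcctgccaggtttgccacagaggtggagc

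The kB letters stood in 9 of the 16 NF-kB list promoters found in RefSeq, against 1.73% of 27305 promoters. Of those 9 genes, 7 were at least 2-fold lower in the pCDH control and 0 were at least 2-fold higher. Over the whole list 13 of 19 measured genes were lower and 1 higher, and over all genes compared 17.8% were lower and 18.3% higher. The ERSE letters stood in 6 of 21 promoters of the unfolded protein response list, against 0.0806% of all promoters, and of these genes 3 were higher and 1 lower by 2-fold or more. The CARE letters stood in 3 of 25 promoters of the ATF4 list, against 3.19% of all promoters, and of these 2 were at least 2-fold lower and 0 higher. A match is a description of letters in a window, not of a bound site. The lists are textbook groups known by these motifs, so the excess of matches over all promoters came with the choice of lists. Whether a motif bore on the ratios was not tested.

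The controls held 11618997 (sh) and 13980837 (pCDH) rounded expected counts, and the 5 libraries ranged from 10327750 to 13980837. Of these counts, 37.7% (sh control) and 66.3% (pCDH control) fell on nuclear protein-coding genes, with 42.2% to 66.0% for the other 3 libraries. A single noncoding gene, AL355075.4, took 29.996% of the sh control and 15.01% of the pCDH control. The authors' fragment length was 46.0 nt in the sh control and 52.3 nt in the pCDH control, the longest of the 5, whose range began at 40.9 nt. RBMS1 itself stood at 31.2 (sh control), 18.7 (sh1088), 13.4 (sh1196), 24.7 (pCDH control) and 36.0 (R1A) scaled CPM, so the knockdown libraries were below both controls and the overexpression library above both. Here and below, scaled CPM means CPM after TMM scaling over the 5 libraries, and values over libraries are given in the order sh control, sh1088, sh1196, pCDH control, R1A unless named. Of 10 genes known to be high in A549 cells, all 10 were measured in both controls, with a median log2 ratio (pCDH control over sh control) of -0.72. Below 0 were 9 of them, and 3 were at least 2-fold lower (30%, against 17.8% of all genes) and 0 higher. Of 9 fibroblast markers 2 were measured, THY1 and COL1A1, both higher in the pCDH control (2.83 and 2.95), with COL1A2, DCN and FAP at 0 counts in both controls. Of 10 immune markers 2 were measured, CD68 and CD14, both higher in the pCDH control (2.04 and 1.61), with PTPRC, CD3E and CSF1R at 0 in all 5 libraries. Of 7 endothelial markers 0 were measured. Of 11 packaging-cell or neural markers 4 were measured, 1 at least 2-fold higher (SOX2, 2.18, which overlaps another gene) and 0 lower (median 0.34).

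The controls lay far apart. The pCDH control was at least 2-fold higher than the sh control for 1920 genes (18.3% of those compared) and at least 2-fold lower for 1867 (17.8%), in all 36.1%. With 1 library a group there is no test of these counts, and each log2 ratio of pCDH control over sh control is given with an exact 95% interval that covers counting error only. That interval lay wholly beyond 2-fold for 1239 genes higher and 1323 lower. At least 4-fold separated 425 genes higher and 471 lower, and at least 8-fold 87 and 149. TMM scaling set the median log2 ratio of all genes at 0.02, and every direction below is relative to that median. Counts of list members below are to be read beside the 18.3% of all genes higher and the 17.8% lower. Scaling by library size moved the median by 0.84 and turned the split into 4682 higher and 587 lower, and the authors' FPKM moved it by 0.93 (5039 higher, 458 lower) and their TPM by 1.92 (8813 higher, 100 lower). A gene at under 5 CPM (before TMM scaling) in one control entered the comparison through the other control alone. Among the 5739 genes with a mean of at least 20 CPM, 999 were higher and 1003 lower, in all 34.9%.

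This gap was larger than that between any other pair of the 5 libraries. On scaled CPM with a prior count, 35.6% of the 10488 genes were at least 2-fold apart between the controls. By the same measure the share was 7.08% between the sh control and sh1088, 23.1% between the sh control and sh1196, and 28.1% between the pCDH control and R1A, so each arm's own contrasts were smaller than the distance between the controls. The libraries R1A and sh1196, from different arms and with RBMS1 altered in opposite directions, were 8.46% apart. The 10488 genes were chosen on the controls, so the shares were taken again, an alternative chosen after seeing the data, over the 10609 genes with a mean CPM of at least 5 over all 5 libraries and over the 10544 with that mean over the 3 that are not controls. The controls were 35.56% and 35.4% apart in these sets, and the next pair, sh1088 and the pCDH control, 30.03% and 29.8%.

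**Figure D1:**
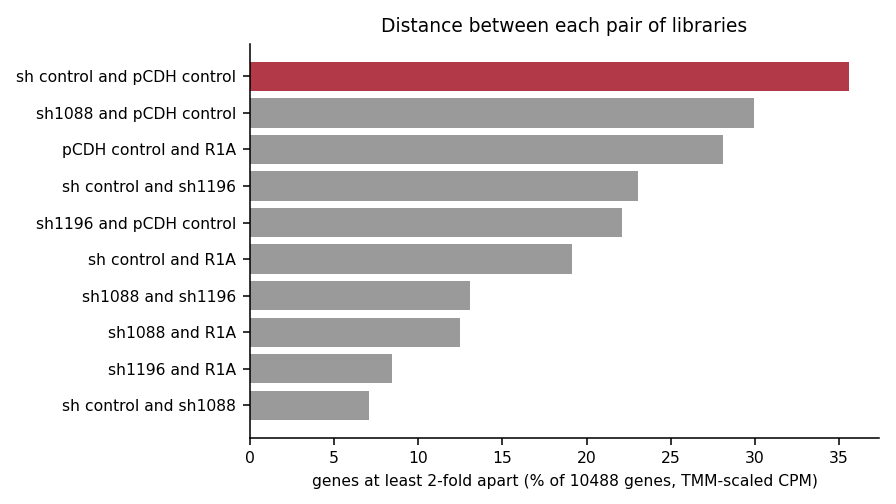
Each bar is the percentage of 10488 genes at least 2-fold apart between 2 libraries (TMM-scaled CPM, prior count 2), with the pair of controls in red. The controls are farthest apart at 35.6% and the sh control and sh1088 closest at 7.08%.

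The test used was edgeR's quasi-likelihood fit of 4 groups over 5 libraries, in which the 2 knockdown libraries alone give the spread (1 residual degree of freedom) and the lone controls are assumed to vary like them. Of 15827 genes tested it called 22 (0.139%) between the controls at an adjusted p of 0.05, 2 higher (0.0126%) and 20 lower (0.126%) in the pCDH control, while 2988 genes had an unadjusted p under 0.05. The count turned on the settings, from 0 to 1057 over the alternatives tried. The 2 genes called higher were INO80B and AL139011.2. Those called lower included PTP4A1, FAM129A, the mitochondrial threonine tRNA MT-TT, 5 U1 small nuclear RNA genes or pseudogenes (among them RNU1-14P), and the small nucleolar RNAs SNORD48 and SNORA72, both of which lie within other genes.

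PTP4A1, a protein tyrosine phosphatase of the PRL family (GRCh38, chr6:63521746-63583377), was the largest called difference of a protein-coding gene with counts in every library. It stood at 273 scaled CPM in the sh control and at 17.9, 10.4, 2.98 and 16.0 in sh1088, sh1196, the pCDH control and R1A. The sh control was thus the library that stood apart, with all 4 others below it. The log2 ratio between the controls was -6.50 (-6.92 to -6.10), with an edgeR adjusted p of 0.0339. FAM129A, a regulator of translation under stress, showed another order, with 34.7, 49.3 and 43.3 in the sh libraries against 1.03 in the pCDH control and 5.09 in R1A (adjusted p 0.0343, edgeR). PTP4A1 and FAM129A overlap other genes on the same strand, and RSEM may have split reads between them.

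At 2 read-through genes, which join neighbours in 1 transcript, the joined gene and its parts held opposite values. INO80B, a subunit of a chromatin remodelling complex, had 4 counts in the sh control and 612 in the pCDH control, whereas INO80B-WBP1, which contains it, had 354 and 0 (at least 254.5-fold lower against a floor of 3 counts). NME1-NME2 had 0 counts in the sh control and 2937 in the pCDH control (at least 453.9-fold higher), while NME1 and NME2, its parts and nucleoside diphosphate kinases, had log2 ratios of -1.56 and -1.74. How reads were divided among the genes of these loci was not tested. Of the 10488 genes 3692 overlap another on the same strand. Of the 6796 left, 1277 were at least 2-fold higher and 1195 lower, in all 36.4%. Overlap is named beside the genes below, and holds as well for RBMS1, SLC7A5, ASNS, FADS2, MCM7, HERPUD1, KRT7, CD68, SNHG25, MALAT1, NEAT1 and RPPH1.

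Among nuclear protein-coding genes that overlap no other, the 12 farthest above 2-fold in the pCDH control were led by HAPLN3, a hyaluronan-binding link protein of the extracellular matrix (chr15:88877288-88895626). HAPLN3 had 3 counts in the sh control and 430 in the pCDH control, and 38, 157 and 60 in sh1088, sh1196 and R1A, a log2 ratio of 6.05 (4.50 to 8.34). MAP1A, a microtubule-associated protein (5.57, but -0.86 on the authors' TPM relative to the all-gene median), and VGF, a secreted neuropeptide precursor (5.03), also rested on 3 or fewer counts in the sh control. Others rested on more counts, among them PKMYT1, the kinase that holds CDK1 inactive before mitosis, and SDC1, a heparan sulfate proteoglycan of the epithelial surface. PKMYT1 read 3.004, 8.195, 20.3, 56.6 and 16.7 scaled CPM, a log2 ratio of 4.25 (3.67 to 4.90). SDC1 read 56.3, 72.8, 153, 548 and 95.5, a log2 ratio of 3.30 (3.16 to 3.44). In both the pCDH control was the highest of the 5 libraries and the sh control the lowest. COL6A2, IGFBP2, CNPY4, METTL7B, FAM20C, NID2 and C1orf35 completed the 12, with log2 ratios from 3.59 for C1orf35 to 4.06 for COL6A2. Apart from SDC1, all of the 12 were under 5 CPM in the sh control before TMM scaling. Those genes passed the filter through the pCDH control alone. COL6A2 had 12 counts in the sh control and METTL7B 10. COL6A2 and NID2 encode matrix proteins, IGFBP2 a secreted binding protein of insulin-like growth factors, and FAM20C a kinase of secreted proteins.

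At the other end stood DCLK1, a microtubule-associated kinase (chr13:35768652-36131306), with 130, 157, 68, 2 and 47 counts, a log2 ratio of -7.13 (-10.19 to -5.25). The low value was that of the pCDH control alone. OLR1, a scavenger receptor for oxidised lipoprotein, showed the same arrangement more clearly, with 23.3, 47.6 and 23.8 scaled CPM in the sh libraries, 0.976 in the pCDH control and 29.7 in R1A (-4.56, -5.37 to -3.84). MT2A, a metal-binding metallothionein, had a different one, at 2551, 871, 723, 129 and 324 scaled CPM, with the sh control highest, the pCDH control lowest and a log2 ratio of -4.29 (-4.35 to -4.22). The other measured metallothioneins, MT1X (-3.36, which overlaps another gene) and MT1F (-3.97), were also lower, a family taken up after its values were seen. SPX, PRSS16, IFI27, BEX2, NMRK1, COMMD6, SNX10, ALDH1L2 and BCAT1 made up the rest of the 12, from -5.63 for SPX to -3.80 for BCAT1. Apart from MT2A, COMMD6 and BCAT1, these 12 were under 5 CPM in the pCDH control before TMM scaling. Those genes passed the filter through the sh control alone. PRSS16 and BEX2 were as low in R1A as in the pCDH control or nearly so, at 2.87 in both for PRSS16 (scaled CPM) and 2.05 against 1.205 for BEX2, with 97.0 and 33.8 in the sh control.

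**Figure D2:**
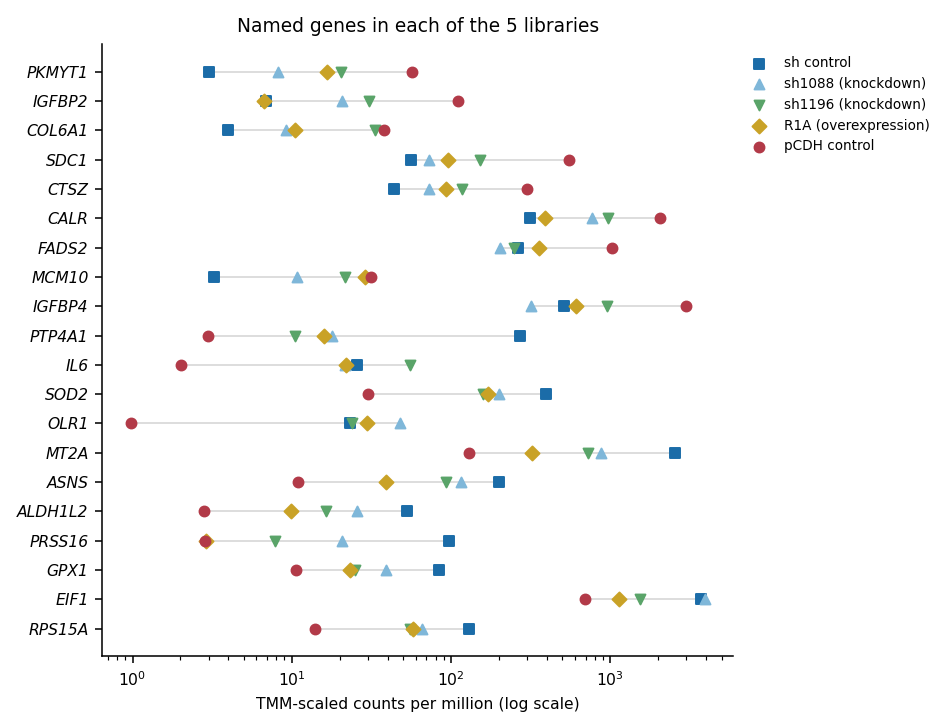
Points are the TMM-scaled CPM (log axis) of 20 named genes in each of the 5 libraries, 1 library a point. The red pCDH control lies at an end of the row for nearly every gene, with the sh control at the other end for PTP4A1 and MT2A but among the other libraries for OLR1 and IL6.

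NF-kB inflammation was the list of protein-coding genes with the lowest median. Of 28 genes 19 were measured, and 13 were at least 2-fold lower and 1 higher in the pCDH control, with a median log2 ratio of -1.63 against 0.02 over all genes. IL6, an inflammatory cytokine, read 25.7, 21.7, 55.3, 2.01 and 22.0 scaled CPM (-3.66, -4.22 to -3.14). CXCL5, a neutrophil-attracting chemokine, read 1190, 1254, 741, 417 and 1657 (-1.5, -1.54 to -1.45). PTGS2, the inducible cyclooxygenase, read 512, 749, 209.9, 164 and 548.5 (-1.63, -1.70 to -1.56). For IL6, CXCL5 and PTGS2 the pCDH control was the lowest library, and R1A, of the same arm, was well above it. CXCL1, the chemokine whose promoter is printed above, followed at 207, 196, 249, 33.7 and 249 (-2.60, -2.74 to -2.47). SOD2, the mitochondrial superoxide dismutase induced by NF-kB, was at 393 in the sh control, 200, 159 and 170 in the other 3 and 30.1 in the pCDH control (-3.69, -3.83 to -3.56), and overlaps another gene. NFKBIA, the inhibitor that NF-kB itself induces, was not 2-fold apart (-0.41), and LIF, a cytokine of the IL6 family, was the 1 member higher (1.76, 1.59 to 1.94). Against the sh control, the list had a median of -0.08 (sh1088), -0.17 (sh1196), 0.10 (R1A) and -1.64 (pCDH control). No member was called by edgeR, and neither was a measured member of any other list except RPPH1, of the small noncoding RNA list.

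Interferon response genes split in 2 ways. Of 38 genes 25 were measured, 11 at least 2-fold lower and 5 higher, with a median of -0.94. IFI27, an interferon-induced mitochondrial protein, read 14.8, 12.8, 0.541, 0.516 and 6.07 scaled CPM (-4.82, -5.99 to -3.85), so it was as low in sh1196 as in the pCDH control. HLA-B, a class I antigen-presenting molecule, went the other way at 2.25, 11.4, 13.3, 20.8 and 5.91 (3.22, 2.54 to 3.99). HLA-C (2.64), read after this value was seen, was also higher, whereas B2M, the light chain they pair with, was level (-0.08). HLA genes share long stretches of sequence and HLA-B and HLA-C overlap other genes, so the division of reads among them is uncertain.

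ATF4 targets serve amino acid supply and the response to protein stress. Of 31 measured ATF4 targets, 13 were at least 2-fold lower and 4 higher in the pCDH control (median -0.72). Against the sh control, their median was -0.27 (sh1088), -0.45 (sh1196), -1.10 (R1A) and -0.71 (pCDH control), so R1A lay below the pCDH control. ASNS, asparagine synthetase, read 200, 116, 93.6, 11.0 and 39.2 scaled CPM (-4.18, -4.40 to -3.96). ALDH1L2, a mitochondrial folate enzyme, read 52.7, 25.5, 16.3, 2.81 and 9.93 (-4.21, -4.67 to -3.78). In both genes the order of the libraries was the same, sh control, sh1088, sh1196, R1A and pCDH control, from high to low. ATF4 itself was lower as well, at 311, 257, 129, 61.5 and 99.2 (-2.32). CHAC1, which degrades glutathione, read 30.04, 9.79, 7.81, 9.70 and 4.10 (-1.62), with the sh control alone high and R1A lowest. The list's 2 most abundant members were higher: SLC3A2 (1.49, 1.44 to 1.54) and SLC7A5 (1.39, 1.35 to 1.43) are the heavy and light chain of an amino acid exchanger at the cell surface. With the trend over GC content taken out of the ratios they stood at 0.997 and 0.72, and 0 members of the list were then at least 2-fold higher and 13 lower. SLC7A11, the cystine transporter that also pairs with SLC3A2, was lower, at 792, 392, 281, 311 and 481 (-1.33, -1.38 to -1.28), though it stood at -0.68 with the GC trend out and the authors' TPM turned it to 0.20 relative to the all-gene median.

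Genes of the unfolded protein response lay on both sides. Of 22 measured, 7 were at least 2-fold higher (HSP90B1, CALR, CANX, PDIA3, PDIA4, P4HB and MANF) and 5 lower (DNAJB9, HERPUD1, EDEM1, XBP1 and SEC61B), with a median of 0.62, which was 0.20 with the GC trend out. On the authors' TPM, relative to the all-gene median, EDEM1 (0.35) and HERPUD1 (0.021) were not lower. CALR, a calcium-binding chaperone of the endoplasmic reticulum, read 311, 768, 962, 2054 and 387 scaled CPM (2.74, 2.68 to 2.80). HSP90B1, the reticulum's HSP90, read 659.5, 1708, 2176, 1901 and 934 (1.54, 1.5 to 1.59). P4HB, a protein disulfide isomerase, was at 440 and 1479 in the controls (1.76, 1.71 to 1.82) and CANX, calnexin, at 1178 and 2750 (1.24, 1.21 to 1.27). XBP1 was lower, at 265 and 86.8 (-1.60, -1.69 to -1.50). HSPA5, the chaperone BiP, a member looked at after its values were seen, was not 2-fold apart between the controls (1137 and 787, -0.51) but stood at 4588 and 4150 in the 2 knockdown libraries. So the chaperones did not share 1 order over the libraries: HSPA5 separated the knockdown libraries from the rest, CALR the pCDH control. Over the list, the median against the sh control was 0.95 (sh1088), 0.97 (sh1196), -0.30 (R1A) and 0.61 (pCDH control). By that median the knockdown libraries lay above the pCDH control. CALR, HSP90B1, CANX and HERPUD1 overlap other genes.

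The lists that build and run the ribosome sat below the all-gene median in the pCDH control. Protein-coding genes in the shortest quintile by coding length did so too (median -0.60), and the median lengths of both ribosomal subunit lists lie in it. Of 29 measured proteins of the small ribosomal subunit 14 were at least 2-fold lower and 0 higher (median -0.97), and of 44 of the large subunit 16 lower and 2 higher (-0.83). RPS16 read 1286, 787, 526, 634 and 557 scaled CPM (-1.0, -1.04 to -0.97), with the sh control highest. RPL27 read 468, 428, 401, 109 and 345 (-2.09, -2.17 to -2.01), with the pCDH control alone low, so the 2 patterns occur within 1 complex. RPLP1, of the ribosome stalk, was at 985 and 402 in the controls (-1.28) and RPL35A at 213 and 51.2 (-2.04). Of 35 translation factors 12 were lower and 2 higher (-0.74). EIF1, which guards start codon choice, read 3708, 3910, 1544, 695 and 1131 (-2.40, -2.43 to -2.37). Of 20 aminoacyl-tRNA synthetases, which load tRNAs, 7 were lower and 1 higher (-0.80), among them GARS (336 and 75.8, -2.13) and TARS (418 and 135, -1.62). The median of the synthetases against the sh control was -0.24, 0.19 and -0.02 in sh1088, sh1196 and R1A and -0.82 in the pCDH control.

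Energy genes showed the same side. Of 60 nuclear genes of oxidative phosphorylation 22 were at least 2-fold lower and 1 higher (-0.69), of 52 mitochondrial ribosomal proteins 16 lower and 2 higher (-0.61), and of 13 mRNAs of the mitochondrial genome 7 lower and 0 higher (-1.01). ATP5F1E, a small subunit of ATP synthase, read 259, 110, 38.8, 27.5 and 48.9 scaled CPM (-3.22, -3.36 to -3.07), with the sh control high and sh1088 next. Its partner ATP5F1B, the catalytic subunit, was at 780 and 505 (-0.61), so subunits of 1 enzyme were not equally far apart. MRPS5 was 1 of the 2 mitochondrial ribosomal proteins at least 2-fold higher, at 13.8, 30.1, 43.5, 63.8 and 28.9 (2.23, 1.94 to 2.52). MT-CO1, of cytochrome oxidase, read 33326, 43256, 14735, 29694 and 17545 (-0.15). MT-CO3 read 40768, 61441, 11509, 8012 and 18496 (-2.33), though both are cut from 1 precursor. Against the sh control, the mRNAs of the mitochondrial genome had a median of -0.11 (sh1088), -1.76 (sh1196), -1.30 (R1A) and -1.02 (pCDH control). By that median sh1196 and R1A lay below the pCDH control. MT-CO3, ATP5F1B and MRPS5 overlap other genes on their strand.

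Mesenchymal, lysosome and growth factor genes were among the lists on the high side. Of 23 measured mesenchymal genes 13 were at least 2-fold higher and 2 lower in the pCDH control (median 1.49). COL6A1, a collagen VI chain, read 4.00, 9.26, 33.1, 37.9 and 10.4 scaled CPM (3.26, 2.75 to 3.82). TGFBI, a secreted adhesion protein, read 428, 399, 1101, 888 and 531 (1.07, 1.02 to 1.12), and VIM, vimentin, 637, 609, 892, 730 and 662 (0.21, 0.17 to 0.26). In these 3 genes sh1196 lay nearer the pCDH control than the sh control, or beyond it. Over all collagen genes, counted after the list was read, 11 of 16 were at least 2-fold higher and 0 lower. COL1A1 and THY1, also fibroblast markers, were at 1.25 and 9.58 (turned to -0.39 relative to the all-gene median on the authors' TPM) and at 2.75 and 19.4, with the other fibroblast markers at 6 counts or fewer in both controls. Whether cells of another kind had a part in these values was not tested. Epithelial genes had a median of 0.06, with 5 of 23 higher (21.7%, near the 18.3% of all genes) and 0 lower. KRT7, a keratin of lung epithelium, was level (0.06). With the GC trend out 2 were higher and 3 lower, and KRT7 stood at -0.70.

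Of 28 lysosomal genes all 28 were measured, 17 at least 2-fold higher and 0 lower (median 1.14). CTSZ, a cysteine protease, read 43.7, 72.3, 117, 300.3 and 93.6 scaled CPM (2.80, 2.64 to 2.96). CTSL, another, read 144, 310.3, 454, 669 and 331 (2.23, 2.15 to 2.32). In both the pCDH control was highest and the sh control lowest, with the other 3 between. PSAP, the precursor of the saposins, was at 512 and 1751 (1.79) and CTSD, an aspartic protease, at 402 and 1040 (1.39), both overlapping other genes. CD68, a lysosomal membrane glycoprotein better known as a macrophage marker, was at 21.5 and 87.9 (2.04).

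Of 24 measured genes of growth factor signalling 12 were at least 2-fold higher and 4 lower (0.93). IGFBP2 read 6.88, 20.8, 30.7, 111 and 6.73 scaled CPM (4.02, 3.63 to 4.43) and IGFBP4, also a binding protein of insulin-like growth factors, 513, 319, 954, 3010 and 612 (2.57, 2.52 to 2.61). For both the pCDH control stood alone at the top and R1A beside the sh control. Over the whole list sh1196 lay near the pCDH control. The growth factor median against the sh control was 0.28 (sh1088), 0.81 (sh1196), 0.04 (R1A) and 0.91 (pCDH control). EGFR, the epidermal growth factor receptor, was less than 2-fold apart (0.55). Of 17 YAP targets 4 were higher (23.5%, near the 18.3% of all genes) and 1 lower, with a median of 0.73. Those higher included CCN2, a matricellular protein, at 22.7, 52.2, 111, 87.6 and 16.5 (1.97), and AXL, a receptor kinase, at 50.3, 86.0, 305, 226 and 87.3 (2.18). Of 29 immediate early genes 11 were higher and 1 lower (0.69), led by FOSB (5.51 and 23.9, 2.13) and NR4A1 (52.4 and 182, 1.81), but the most abundant, DUSP1, was not (-0.36), and with the GC trend out 5 were higher and 2 lower (0.18).

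**Figure D3:**
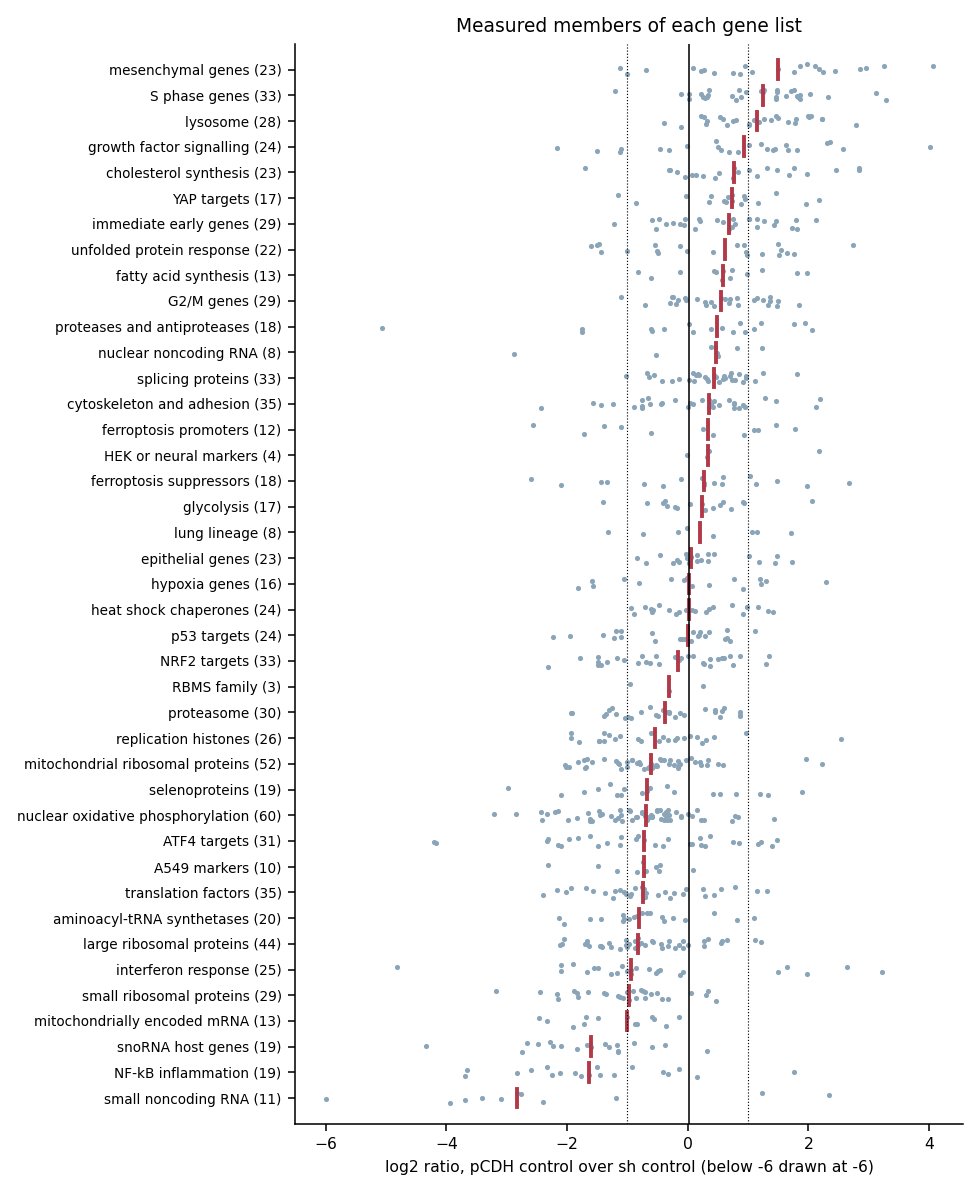
Each point is the log2 ratio, pCDH control over sh control, of 1 measured member of a gene list, with the list's median as a red bar and the number of members in brackets. The black line is the median over all 10488 genes (0.02) and the dotted lines mark 2-fold, and RPPH1, at 0 counts in the pCDH control, is drawn at -6. Medians run from -2.83 for small noncoding RNA to 1.49 for mesenchymal genes.

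Of 33 measured S phase genes, which copy DNA, 18 were at least 2-fold higher and 1 lower in the pCDH control (median 1.25). MCM10, which helps to load the replicative polymerase, read 3.25, 10.9, 21.6, 31.3 and 28.7 scaled CPM (3.28, 2.71 to 3.91). CCNE1, the cyclin of S phase entry, read 3.25, 7.03, 12.2, 28.2 and 10.7 (3.13, 2.56 to 3.76). MCM7, of the replicative helicase, read 63.8, 87.1, 192, 177 and 176 (1.49, 1.35 to 1.62). Here the pCDH control did not stand alone, for the list's median against the sh control was 0.29 (sh1088), 1.01 (sh1196), 1.32 (R1A) and 1.21 (pCDH control). Of 29 genes of G2 and mitosis 9 were higher and 1 lower (0.55), with CENPF, a kinetochore protein, at 25.9, 36.7, 53.2, 91.9 and 102 (1.84). CDKN1A, the cyclin-dependent kinase inhibitor p21, was lower at 303, 184, 97.8, 77.5 and 58.7 (-1.95, -2.05 to -1.86), and over 24 p53 targets 7 were lower and 1 higher (0.01). Replication histones went against the S phase list, with 10 of 26 lower and 1 higher (-0.54). HIST1H1E, a linker histone, was at 1299 and 335 (-1.94), and the 1 member higher was HIST1H2AM (2.54), which overlaps another gene. Histone mRNAs lack a poly(A) tail and many gene copies are near-identical, so how reads were shared among them is uncertain.

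Of 23 measured genes of cholesterol synthesis, which SREBP2 controls, 10 were at least 2-fold higher and 1 lower (median 0.76), and with the GC trend out 7 were higher and 0 lower (0.53). The list's median against the sh control was 0.31 (sh1088), 0.63 (sh1196), 0.56 (R1A) and 0.75 (pCDH control). Of 13 genes of fatty acid synthesis 3 were higher and 0 lower (0.58), among them FASN, fatty acid synthase, at 73.2 and 255 (1.81), and FADS2, a desaturase, at 264 and 1031 (1.98).

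RBMS1 has been studied in ferroptosis, a cell death by lipid peroxidation in which iron, glutathione and selenium take part. Of 18 measured suppressors of ferroptosis 5 were at least 2-fold higher (27.8%) and 4 lower (22.2%), with a median of 0.27. Of 12 promoters 4 were higher and 4 lower (33.3% each, median 0.34), against 18.3% and 17.8% of all genes. GPX4, the selenoenzyme that repairs lipid peroxides, read 180, 125, 79.8, 41.4 and 68.0 scaled CPM (-2.11, -2.24 to -1.98), and GPX1, its cytosolic relative, 84.0, 39.1, 24.8, 10.6 and 23.2 (-2.98, -3.22 to -2.74). For both, the sh control was the highest and the pCDH control the lowest library. Of 19 selenoproteins 8 were lower and 3 higher (-0.68). ACSL4, which loads membranes with oxidisable fatty acids, was lower at 122 and 20.4 (-2.57) and POR, a reductase that promotes lipid peroxidation, higher at 40.7 and 137 (1.77), both overlapping other genes. FTL (0.57) and FTH1 (-0.11), the ferritin chains, were less than 2-fold apart. Of 33 NRF2 targets 9 were lower (27.3%, against 17.8% of all genes) and 2 higher (-0.16). The lowest was AKR1C1, an aldo-keto reductase, at 333, 249, 58.4, 66.2 and 319 (-2.32), which set sh1196 beside the pCDH control.

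Small structured RNAs were the farthest below the all-gene median in the pCDH control. Of 59 measured small nuclear RNA genes 46 were at least 2-fold lower and 1 higher (median -3.62), of 66 small nucleolar RNAs 45 lower and 4 higher (-1.76), and of 12 mitochondrial tRNAs 11 lower and 0 higher (-2.96). MT-TT read 176, 73.3, 76.7, 3.90 and 90.3 scaled CPM (-5.48, -5.85 to -5.13), with an edgeR adjusted p of 0.0339. RNU1-14P, a U1 copy, read 23.8, 29.2, 24.1, 0.861 and 16.0 (-4.77, -5.64 to -4.01), with an edgeR adjusted p of 0.0372. In both the pCDH control was the low library and the other 4 stayed within 3-fold of each other. RPPH1, the RNA of RNase P, had 241075 counts in the sh control and 0 in the pCDH control, with scaled CPM of 30170 in the sh control and 24838 to 31936 in the other 3 libraries. It lies wholly within AL355075.4 on the same strand (chr14:20343075-20343407 within chr14:20343048-20343685, minus), which had 3485212 counts in the sh control and 2098548 in the pCDH control, and how reads were divided between these 2 genes was not tested. Such RNAs took 4.41% (small nuclear), 0.315% (nucleolar) and 2.06% (mitochondrial tRNA) of the sh control's counts, against 1.197%, 0.116% and 0.0948% for the pCDH control, the library with the longest fragments, and the part of fragment length in this was not tested. Many are copies of near-identical sequence, so single genes are uncertain. Host genes of small nucleolar RNAs were lower too, 15 of 19 (-1.60), with SNHG25 at 472, 60.9, 21.8, 23.2 and 32.3 (-4.33), where the sh control alone was high. Against the sh control, these host genes had a median of -0.30 (sh1088), -1.03 (sh1196), -1.41 (R1A) and -1.61 (pCDH control). Here the pCDH control did not stand alone. The nuclear RNAs MALAT1 (0.81) and NEAT1 (0.50) were not 2-fold apart.

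The other 3 libraries, 2 of them from the sh arm, were placed between or beyond the controls. For the 1920 genes at least 2-fold higher in the pCDH control, all 3 others lay nearer the sh control in 779 (40.6%) and nearer the pCDH control in 179 (9.32%). For the 1867 genes lower, the numbers were 671 (35.9%) and 225 (12.1%). The pCDH control was the most extreme of the 5 libraries for 86.6% of the genes higher and 79.0% of those lower, and the sh control for 60.6% and 68.6%, with both controls at the ends for 49.6% and 49.9%. These shares are raised by the choice of genes on the 2 controls and are a description, which does not show that 1 control stood apart. Library by library, sh1088 was nearer the pCDH control for 18.2% of the genes higher and 17.1% of those lower, sh1196 for 49.1% and 53.5%, and R1A for 32.2% and 44.2%. R1A shares its arm with the pCDH control.

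**Figure D4:**
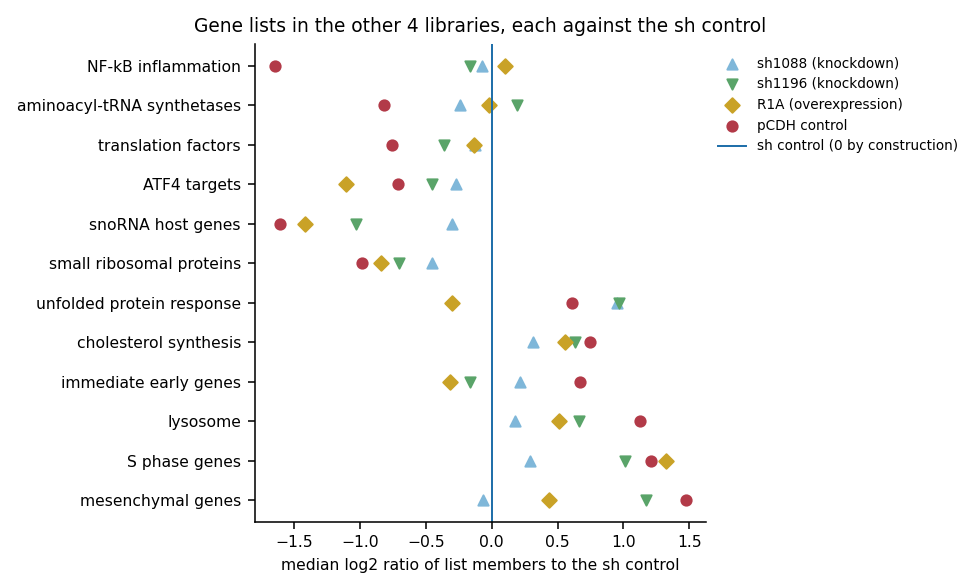
Points are the median log2 ratio of each list's measured members to the sh control in the other 4 libraries (TMM-scaled CPM), so the sh control is the line at 0. For NF-kB inflammation the pCDH control stands alone at -1.64, while for S phase genes sh1196, R1A and the pCDH control lie together between 1.01 and 1.32.

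R1A over the mean of the knockdown libraries is the 1 contrast of RBMS1 that uses neither control. Of the 3787 genes at least 2-fold apart between the controls, 53.7% had the same sign there, and across all 10488 genes Spearman's rho was 0.07. By direction, 43.8% of the genes higher in the pCDH control were also higher in R1A (47.0% of all genes were), and 63.9% of those lower were also lower (52.9% of all). The share rested on the hairpin: it was 35.9% without sh1088 and 66.9% without sh1196.

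Sequence composition moved with the difference. Over 9977 nuclear protein-coding genes the log2 ratio was higher at higher GC content of the longest transcript (Spearman's rho 0.40 across genes, which are not independent) and at greater coding length (0.29). In the quintile of genes with the lowest GC content, 4.31% were at least 2-fold higher and 29.3% lower, and in the quintile with the highest, 39.5% higher and 6.41% lower. In the shortest quintile by coding length 8.62% were higher and 34.995% lower, and in the longest 23.8% and 6.17%. The median coding lengths of the small (456 bases) and large (505.5) ribosomal subunit lists and of oxidative phosphorylation (480) lie in the shortest quintile. Of that quintile 34.995% were lower, against 48.3% of the small subunit list, 36.4% of the large and 36.7% of oxidative phosphorylation. The median log2 ratios were -0.60 for the quintile and -0.97, -0.83 and -0.69 for the lists in that order. With the GC trend taken out of the ratios 1415 genes were higher and 1525 lower. The list medians then stood at -1.43 for NF-kB, 1.23 for mesenchymal genes, 1.03 for S phase, 0.95 for lysosome, -1.12 for the small ribosomal subunit and 0.53 for cholesterol genes, but at 0.20 for the unfolded protein response and 0.18 for immediate early genes. The part of composition and length in the remaining differences was not tested.

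**Figure D5:**
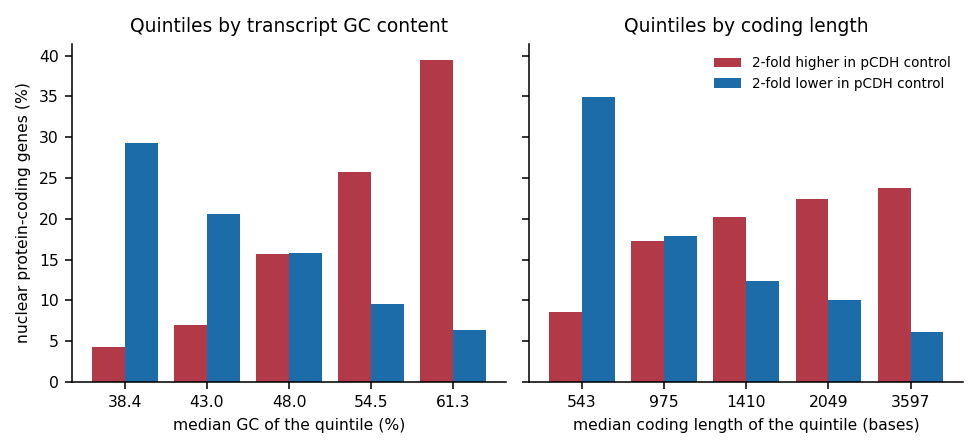
Bars are the percentage of nuclear protein-coding genes at least 2-fold higher (red) or lower (blue) in the pCDH control, in quintiles of 9977 genes by the GC content of the longest transcript (left, median percent of each quintile) and by coding length (right, median bases). The share higher climbs from 4.31% to 39.5% with GC content, and the share lower drops from 34.995% to 6.17% with coding length.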

How the data were processed

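Per the file headers, the authors deposited for each library a table of genes with RSEM expected counts, TPM, FPKM and gene lengths. Bowtie, DESeq2, RSEM 1.3.1 and STAR 2.4.2 are named, per the submitters' processing notes, without their roles, and the genome build was not given in the sources used here. Gene identifiers matched GENCODE release 29 (GRCh38) for 58656 of 58929 genes, and biotypes, coordinates, overlaps and GC content were taken from it. Expected counts were rounded. Log2 ratios between the 2 controls used TMM scaling of that pair (edgeR 4.0.16, R 4.3.3), which differed by 0.0157 from TMM over the 5 libraries, and exact conditional Clopper-Pearson 95% intervals, which cover counting error only. A gene was called at 2-fold or more. A control at 0 was set to a floor of 3 counts. The test was edgeR's quasi-likelihood fit of 4 groups (filterByExpr, robust, Benjamini-Hochberg at 0.05). No label gives separate cultures for sh1088 and sh1196, which are named for different hairpins. The p-values thus measure a spread that mixes any difference between the hairpins with spread that may be technical. Promoters came from RefSeq. Scripts were tested on simulated data.

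The genes and the 44 gene lists (41 with at least 3 measured members) were chosen with earlier results of these data known. Named genes were RBMS1, SLC7A11, SLC3A2 and GPX4, the 12 protein-coding genes without overlap in each direction whose interval lay farthest from 0, the 6 other genes in each direction, up to 10 genes called by edgeR in each direction, and in each list the 2 most abundant and the 2 farthest. Those the text did not need were left out, and other names are said to be chosen after their values were seen, as are CXCL1, XBP1, CHAC1, ATF4, LIF, NFKBIA, NME1, NME2, the marker genes at 0 counts and the members listed for the unfolded protein response. Alternatives were other scalings (library size, DESeq2 1.42.0 size factors, the authors' TPM and FPKM with pseudocounts of 1 and 0.1), other filters, a GC trend taken out, libraries left out, DESeq2 and limma-voom (limma 3.58.1).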

Additional observations from a re-analysis of the deposited data

How the results depend on the processing

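The number of genes at least 2-fold apart (3787, of which 1920 higher and 1867 lower) followed the scaling and the filter. Library-size scaling gave 4682 higher and 587 lower, the authors' TPM with a pseudocount of 1 gave 8913 (8813 higher, 100 lower) and with 0.1 gave 9333 (9216 and 117), and FPKM gave 5039 higher and 458 lower. A minimum of 20 CPM gave 2002 of 5739 genes (34.9%, 999 and 1003) and no filter 9814 of 21058 (46.6%, 3793 and 6021). Leaving out overlapping genes gave 2472 of 6796 (36.4%, 1277 and 1195). These filters change the number of genes compared, and the share in the main set was 36.1%. Centred on the median of all genes, an alternative chosen after seeing the data, TPM gave 3199 and FPKM 3555. The edgeR count of 22 was 146 with library-size scaling, 0 with DESeq2 size factors (2946 at an unadjusted p under 0.05), 1057 with no filter, 233 with a minimum of 5 CPM, 3 in a fit of vector system and RBMS1 level, 0 for 3 sh against 2 pCDH-arm libraries (829 unadjusted), and 113 without R1A. The level fit gave 336 without sh1088 and 588 without sh1196, where the lone knockdown library is assumed to vary like the others and the spread is the departure of the 4 libraries from the level term. DESeq2 called 420 and limma-voom 32. The cause of these changes was not tested. Lists with a median beyond 2-fold numbered 7 of 41, and 4 of 37 with the GC trend taken out. That trend was taken over nuclear protein-coding genes. Small noncoding RNA, host genes of small nucleolar RNAs and mRNAs of the mitochondrial genome, among the 7, thus have no such value. Of the lists with one, lysosome genes fell short (0.95) and the small ribosomal subunit came in (-1.12). The authors' TPM, relative to its median, reversed COL1A1 (-0.39), MAP1A (-0.86), SLC7A11 (0.20), EDEM1 (0.35) and HERPUD1 (0.021), and FPKM reversed EDEM1 (0.29). The share with the same sign in R1A over knockdown (53.7%) ran from 35.9% to 66.9% with 1 hairpin left out and was 60.9% with library-size scaling, 63.0% with the GC trend out and 56.7% at 20 CPM. No paired analysis was possible because the 2 controls share no replicate number that the labels give and each is 1 library.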

Other observations

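Lists not described above are read against the 18.3% of all genes that were at least 2-fold higher in the pCDH control and the 17.8% lower, and for splicing proteins, heat shock chaperones and glycolysis neither share was above these. Of 33 measured splicing proteins 3 were at least 2-fold higher in the pCDH control and 1 lower (median log2 ratio 0.44), and with the trend over GC content taken out 10 were higher and 0 lower. HNRNPA2B1, an RNA-binding protein of the spliceosome's neighbourhood, read 649.5, 790, 735, 1524 and 978 scaled CPM in the sh control, sh1088, sh1196, the pCDH control and R1A (1.25, 1.203 to 1.29), and its relative HNRNPAB 60.7, 66.0, 76.0, 211 and 80.3 (1.82, 1.68 to 1.95). In both the pCDH control was the highest library, and for HNRNPAB the other 4 lay close together. Of 30 measured proteasome genes 8 were lower and 0 higher (-0.38), among them PSMB3, a subunit of the core particle, at 564, 428, 402, 145 and 403 (-1.94, -2.01 to -1.87). Of 24 heat shock chaperones 3 were higher and 0 lower (0.02). HSP90AA1, the inducible cytosolic HSP90, was less than 2-fold apart between the controls (350.2 and 656, 0.92), while sh1196 and R1A stood higher, at 1239 and 1193.

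Glycolysis and hypoxia genes did not lean one way, with 1 of 17 higher and 1 lower (0.24) and 4 of 16 higher and 4 lower (0.03). ENO1, enolase, read 2107, 1438, 1607, 789 and 1770 (-1.40, -1.43 to -1.37) and SLC16A3, the lactate exporter, 29.03, 52.2, 56.2, 119 and 88.2 (2.06, 1.86 to 2.26), and both overlap other genes. MUC5AC, a gel-forming airway mucin, read 139, 105, 9.12, 451 and 203 (1.71, 1.62 to 1.80), so the library farthest from the pCDH control was sh1196 and not the sh control. TMSB4X, an actin-binding peptide, read 2083, 1365, 314, 383 and 360.5 (-2.43, -2.47 to -2.39), with the sh control and sh1088 high and the other 3 together. ADAM9, a membrane protease, read 166, 131, 266, 689 and 244 (2.07, 1.98 to 2.15), with the pCDH control alone at the top.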
